A study of Mus musculus with 12 samples.

Results

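Smc3 heterozygosity was examined on a background without Yy1, by comparing 4 libraries labelled Yy1-/- Smc3+/- with 4 libraries labelled Yy1-/-, 8 of the 12 libraries of the series. Members of the comparison were chosen by genotype label alone. All libraries were made from LSK cells of mouse bone marrow, the lineage-negative fraction with Sca1 and c-Kit on the surface that holds stem cells and early progenitors. RNA was taken from the sorted cells and turned into full-length cDNA with a low-input kit that keeps no strand information. Both groups of the comparison share the Yy1-/- genotype, and by their labels they differ in Smc3, which is +/- in the second. The 4 Yy1+/+ libraries set levels side by side. They also enter the model fitted over all genes, where they share in the gene filter, the scaling and the estimate of spread. No age, sex, Cre driver, treatment time, batch or number of animals per library is given in the labels, and nothing there says that the 4 libraries of a group came from separate mice. The p-values below therefore measure the spread between these libraries, which may be technical in part.

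Smc3 encodes one of the long ATPase arms of cohesin, which closes with Smc1a, Rad21 and a Stag subunit into a ring around DNA. Cohesin holds sister chromatids together until anaphase, and it extrudes chromatin loops that are stopped by Ctcf. Yy1 is a zinc finger factor that binds promoters and enhancers and takes part in contacts between them. In blood, mutations of cohesin genes are known from myeloid leukaemia, and lowered cohesin dose is known to alter stem cell renewal and differentiation.

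Summed expected counts of the 8 libraries ran from 38671354 to 51587192. Levels are given as counts scaled to library size (CPM) after scaling by the trimmed mean of M values, in the order of replicates 1 to 4, and replicate numbers of different groups do not correspond. The correlation of log levels across genes had a median of 0.94 between a library of one group and a library of the other (16 pairs). Within a group the medians were 0.927 for Yy1-/- and 0.938 for Yy1-/- Smc3+/- (6 pairs each), so the groups were no further apart than their own libraries. Yy1-/- replicate 1 stood apart on the first principal component, which held 28.3% of the variance, at -135, with replicate 2 next at -45.8 and the other 6 between -4.66 and 49.5. Sex-linked reads were unequal between the groups. Y-linked genes summed to 28.7 to 162 CPM in all 4 libraries labelled Yy1-/- Smc3+/- and were above 0 only in replicate 3 (38.9 CPM) of Yy1-/-. Xist, the RNA of the inactive X chromosome, was at 33.9 to 92.8 CPM in all Yy1-/- libraries, at 0 in replicates 1 and 4 of Yy1-/- Smc3+/-, at 3.58 in replicate 2 and at 107 in replicate 3. Sex and the Smc3 genotype were thus partly confounded, and a library with both kinds of read may hold cells of more than 1 mouse, which was not tested.

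Smc3 mRNA (ENSMUSG00000024974.10, chromosome 19:53600398-53645833, GRCm38) was not found at a lower level in the group labelled Smc3+/-. It was measured at 200, 274, 306 and 243 CPM in Yy1-/- and 254, 344, 314 and 291 CPM in Yy1-/- Smc3+/-. The groups overlapped, and the group labelled Yy1-/- Smc3+/- had the higher mean, 301 ± 38.1 CPM against 255 ± 45.2 (SD, n = 4 each). The log2 fold change was 0.24 with a 95% interval of -0.10 to 0.57, which leaves out a fall to 50% of the level (-1), and edgeR gave an adjusted p of 0.915. An exact permutation test on the 8 levels gave a two-sided p of 0.2, where 0.0286 is the smallest p that the 70 divisions of the libraries allow. Yy1+/+ libraries held 160 to 214 CPM of Smc3. Because the mRNA does not set the group apart, it is named throughout as labelled, and whether an altered Smc3 allele still gives counted reads was not tested.

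Yy1 reads were few in both groups, and their spread was large. Yy1 mRNA was at 0.407, 0.996, 5.01 and 12.2 CPM in Yy1-/- and at 0.772, 0.795, 4.45 and 0.944 CPM in Yy1-/- Smc3+/-, against 33.9 to 41.3 CPM in Yy1+/+. Replicates 3 and 4 of the first group and replicate 3 of the second kept the most, and the groups overlapped (log2 fold change -1.42, 95% interval -3.30 to 0.45, edgeR adjusted p = 0.911; exact permutation p = 0.343). The sort markers were both present. Kit, the stem cell factor receptor, was at 100, 229, 135 and 242 CPM in Yy1-/- and at 229, 373, 180 and 198 CPM in Yy1-/- Smc3+/- (log2 fold change 0.47, edgeR adjusted p = 0.929). Ly6a, which encodes Sca1, was at 180 to 380 CPM and 150 to 335 CPM (log2 fold change -0.13, edgeR adjusted p = 0.98). Kit was at 422 to 981 CPM in Yy1+/+, above all 8 libraries.

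Cohesin genes other than Smc3 were also not separated by the label. Of 28 tested genes for ring subunits, loaders, releasers and protectors, Smc3 counted among them, 0 passed the edgeR test (0.036% of all genes did). A higher point estimate was found for 19, Smc3 included, and a lower one for 9. At an unadjusted p under 0.05 the count was also 0 (5.3% of all genes), and DESeq2 called 0. The share of 0.036% leaves little room for a count above 0 among 28 genes, and at 5.3% only a few would be looked for. Log2 fold changes ran from -0.15 (Chtf8) to 0.43 (Stag3, a ring subunit known from meiosis), with a median of 0.11 (0.04 without replicate 1 of Yy1-/-), while the median of all genes was 0.00. No cohesin gene separated the 2 groups without overlap (2.01% of all genes did). Smc1a, the partner arm of Smc3, was at 260 ± 38.7 CPM in Yy1-/- and 282 ± 39.9 in Yy1-/- Smc3+/-, and Rad21, the subunit that closes the ring, at 116 ± 10.8 and 130 ± 12.5 CPM. Stag2, a Stag subunit of somatic cells, was at 108 ± 16.4 and 117 ± 21.2 CPM. Nipbl, which loads cohesin, was at 90.1 ± 10.3 and 88.5 ± 32.9 CPM, and Wapl, which releases it, at 119 ± 9.21 and 124 ± 20 CPM (SD, n = 4 in each case). Intervals of 27 of the 28 genes lay above -1, and the exception was Smc1b, a meiotic arm with few reads (-1.55 to 1.43).

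**Figure D1:**
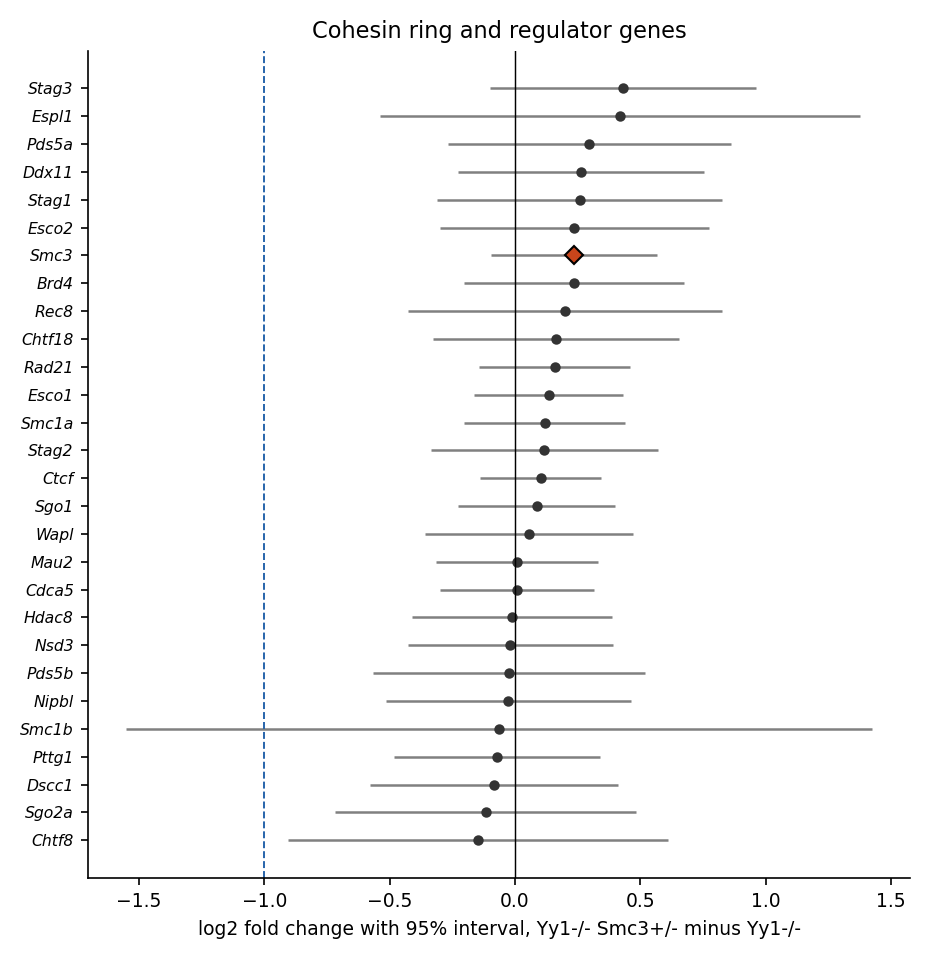
Log2 fold change of the 28 tested cohesin genes in Yy1-/- Smc3+/- over Yy1-/- (points) with 95% intervals (bars); Smc3 is the orange diamond, and the dashed line at -1 marks a fall to 50%. All intervals cross 0, and only that of Smc1b reaches -1.

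Across the transcriptome 6 of 16649 genes passed the test (0.036% called), 5 of them higher (0.03%) and 1 lower (0.00601%) in the libraries labelled Yy1-/- Smc3+/-. The 5 that rose were Gm8730, Gm9625, Gm6472, Rab35 and Wwtr1, and the gene that fell was Fhdc1. At an unadjusted p under 0.05 the same test had 882 genes (5.3%), 367 higher (2.2%) and 515 lower (3.09%). The 4 libraries of one group lay wholly above or below the 4 of the other for 335 genes (2.01%), 188 higher (1.13%) and 147 lower (0.883%). DESeq2 called 55 genes, all 6 among them. Fitted on the 8 libraries alone, edgeR called Gm8730, Gm9625, Gm6472, Gm14165 and Igkv17-127. The calls of Rab35, Wwtr1 and Fhdc1 were lost in that fit. Leaving out replicate 2 of Yy1-/- or replicate 1, 2 or 3 of Yy1-/- Smc3+/- gave 3 calls each (Gm8730, Gm9625 and Gm6472), and with sex-linked reads as a term 2 calls (Gm8730 and Gm9625). Without the 3 libraries with residual Yy1 reads 169 genes were called, 46 higher and 123 lower, from 2 and 3 libraries a group. The 2 left in Yy1-/- were replicates 1 and 2. Their monocyte and macrophage genes summed to 18220 and 13110 CPM, against 1538 and 2203 CPM in replicates 3 and 4. How far this set the number of calls was not tested. Among 10776 genes whose higher group mean reached 5 CPM, the median half-width of the 95% interval was 0.44 on the log2 scale. Intervals of 8749 of these (81.2%) stayed inside a 2-fold change in either direction, so for most well-expressed genes a change larger than that lay outside the interval.

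**Figure D2:**
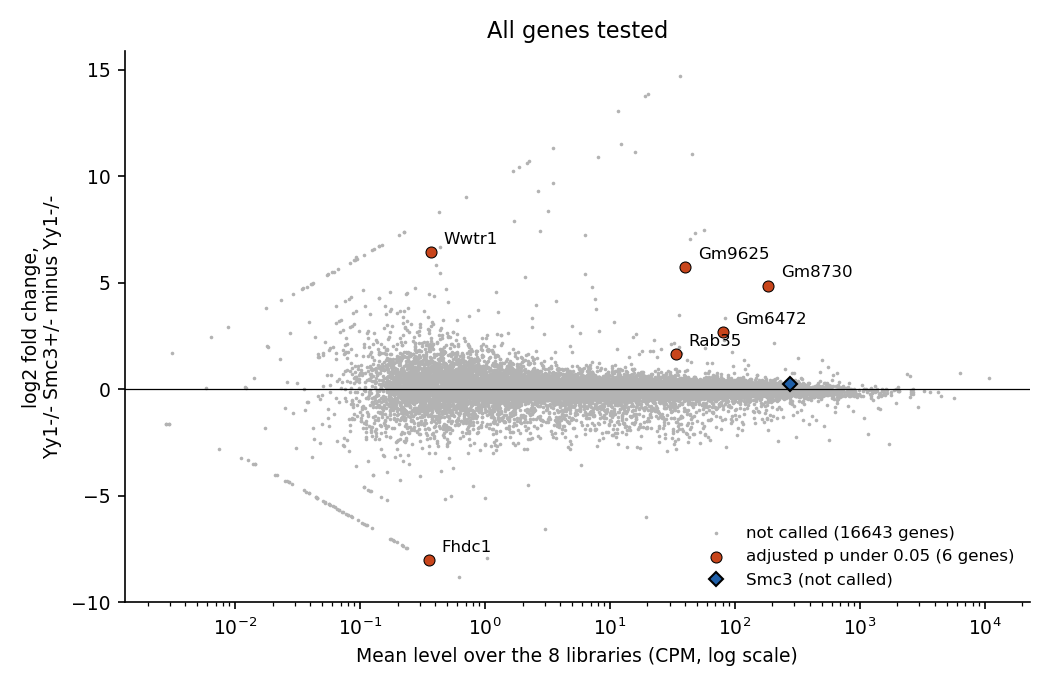
Each point is 1 of 16649 tested genes, placed by its mean level over the 8 libraries (CPM, log axis) and its log2 fold change, Yy1-/- Smc3+/- minus Yy1-/-. Orange points are the 6 genes with an edgeR adjusted p under 0.05, and the blue diamond is Smc3 at 0.24.

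The 3 calls with the smallest p were processed pseudogenes, intronless copies of ribosomal protein mRNAs. Gm8730 (ENSMUSG00000063696.7, chromosome 8:102864845-102865798) and Gm9625 (ENSMUSG00000097906.1, chromosome 13:67810246-67811200) are copies of Rplp0, whose protein forms the base of the ribosomal stalk. Gm6472 (ENSMUSG00000095597.2, chromosome X:152909505-152910155) is a copy of Rps7, a protein of the small ribosomal subunit. Over the 954 bases of the Rplp0 coding sequence Gm8730 was 98.7% identical with 12 substitutions, and Gm9625 97.4% identical with 24 substitutions and 1 gap. Gm6472 matched the 585 coding bases of Rps7 with 3 substitutions (99.5%). A stretch of 120 bases of each is shown because reads from gene and copy differ only at the bases in capitals; it holds the most differences of Gm8730, or of Gm6472, in a stretch of that length. Sequences are from GENCODE M21 transcripts (GRCm38), 5′ to 3′, coding strand, with coding positions counted from 1 at the A of the start codon. The Rplp0 stretch covers positions 383 to 502, and capitals in Rplp0 mark every base that differs in either copy.
Rplp0: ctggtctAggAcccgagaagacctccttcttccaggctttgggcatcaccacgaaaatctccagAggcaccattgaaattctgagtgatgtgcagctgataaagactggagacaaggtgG
Gm8730: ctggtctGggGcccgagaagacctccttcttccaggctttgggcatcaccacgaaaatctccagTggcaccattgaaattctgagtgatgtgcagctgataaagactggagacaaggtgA
Gm9625: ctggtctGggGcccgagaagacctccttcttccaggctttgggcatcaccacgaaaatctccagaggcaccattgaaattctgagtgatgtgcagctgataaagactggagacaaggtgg
Within it A390G and A393G were shared by both copies, while A447T and G502A were found in Gm8730 alone. Over the whole coding sequence 8 substitutions were common to Gm8730 and Gm9625, and 7 of them (T72C, G138C, T192C, A390G, A393G, A696G and A784G) also occurred in Gm14165, another copy on chromosome 2. The Rps7 stretch covers positions 4 to 123 and holds all 3 differences of Gm6472.
Rps7: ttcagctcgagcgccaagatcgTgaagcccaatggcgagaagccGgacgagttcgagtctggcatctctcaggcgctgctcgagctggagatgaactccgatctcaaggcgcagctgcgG
Gm6472: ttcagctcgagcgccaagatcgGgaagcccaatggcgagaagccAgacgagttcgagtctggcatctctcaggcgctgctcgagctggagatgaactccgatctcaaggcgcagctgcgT

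Gm8730 counts were at 14.7, 8.99, 14.4 and 11.1 CPM in Yy1-/- and at 409, 324, 334 and 367 CPM in the libraries labelled Yy1-/- Smc3+/-. Gm9625 was at 1.83, 1.06, 1.48 and 1.58 CPM and at 87.3, 70.2, 72.6 and 84.2 CPM. Gm6472 was at 26.6, 14.7, 25.8 and 19.2 CPM and at 155, 128, 139 and 132 CPM. All 3 were high in every library of the second group and low in every library of the first, with wide gaps between them. Their log2 fold changes were 4.86 ± 0.27, 5.72 ± 0.34 and 2.68 ± 0.23 (SE), with edgeR adjusted p of 4.22e-06, 6.03e-06 and 0.000312. Yy1+/+ libraries were also low, at 5.90 to 13.8, 0.668 to 2.08 and 10.7 to 20.8 CPM. Gm14165 was at 0.0199 to 0.225 CPM in Yy1-/- and at 3.16 to 5.23 CPM in Yy1-/- Smc3+/-, with an edgeR adjusted p of 0.0954. It was called by DESeq2 (adjusted p = 1.57e-09), by limma on log2 TPM (1.43e-05) and by edgeR on the 8 libraries alone (0.0473).

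The parents of the called copies had the opposite sign. Rplp0 (chromosome 5:115559467-115563727) was at 2806, 1795, 2627 and 2236 CPM in Yy1-/- and at 1675, 1301, 1601 and 1556 CPM in the libraries labelled Yy1-/- Smc3+/-. Rps7 (chromosome 12) was at 983, 597, 909 and 708 CPM and at 553, 472, 542 and 492 CPM. Neither gene overlapped between the groups, and neither passed the edgeR test (log2 fold changes -0.63 and -0.63, adjusted p = 0.818 and 0.797), while DESeq2 called both lower (-0.64 and -0.65, adjusted p = 0.0261 and 0.0375). With the reads of Rplp0 and its 3 tested copies added, the levels were 2822, 1805, 2643 and 2249 CPM against 2176, 1699, 2010 and 2012 CPM, and the groups overlapped. The ratio of means moved from 0.648 for Rplp0 alone to 0.83 for the sum. For Rps7 with 5 tested copies the sums were 1014, 618, 942 and 734 CPM against 713, 605, 687 and 630 CPM, and the ratio moved from 0.644 to 0.796. Among the Rps7 copies only Gm6472 was called. Gm9493 and AC121967.1, both with few reads, were lower without overlap (log2 fold changes -1.37 and -1.33, edgeR adjusted p = 0.89 and 0.904). Gm7285 and Gm28530 overlapped between the groups (-0.08 and 0.40). RSEM divides reads between sequences that both fit, so the level of each gene and copy is uncertain where they share reads. Means of Rplp0 and Rps7 differed by -833 and -284 CPM, and those of their summed copies by 427 and 115.5 CPM. In Yy1+/+, where the copies were low, Rplp0 was at 1297 to 1610 CPM and Rps7 at 487.5 to 584.9 CPM. Those levels were near the ones of Yy1-/- Smc3+/-. Whether reads of the parents were counted on the copies in 1 group, and why, was not tested.

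**Figure D3:**
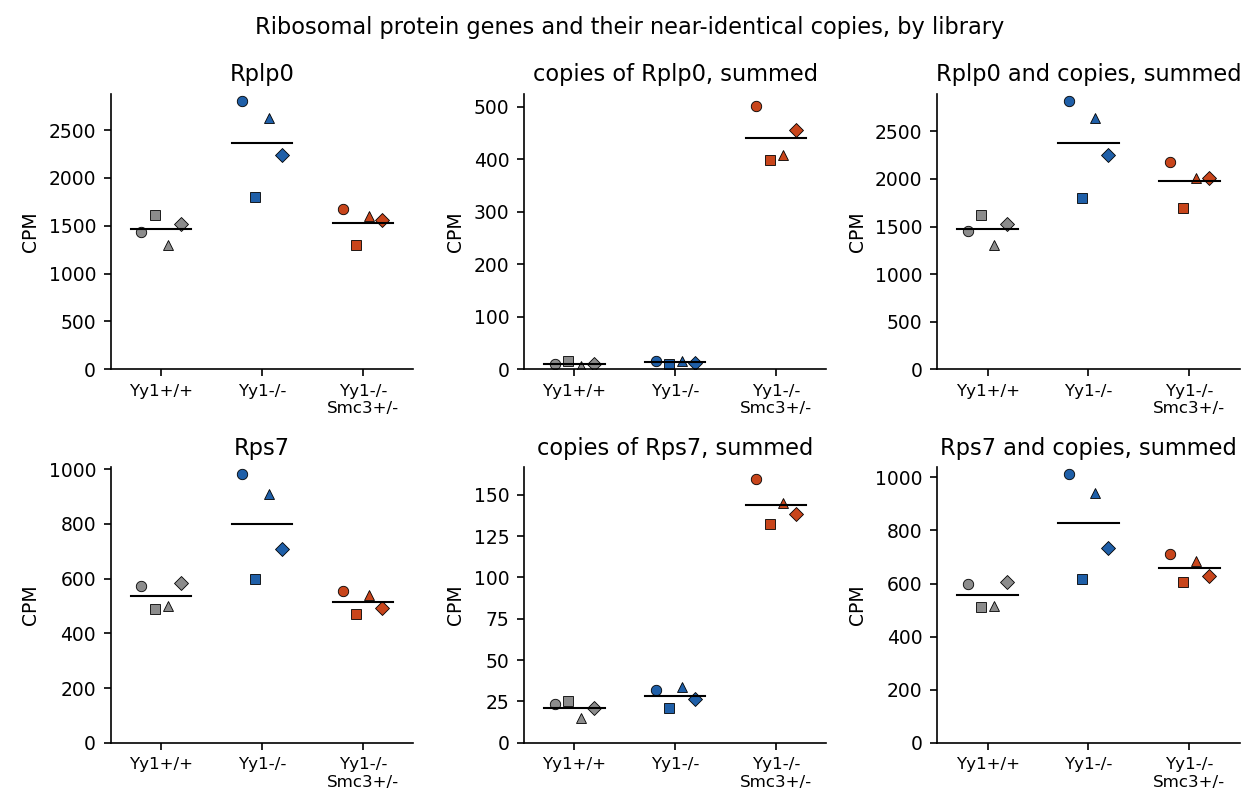
Level (CPM) of Rplp0 and Rps7, of the sum of their tested copies, and of both together in each library; symbols are replicates 1 to 4 as circle, square, triangle and diamond, and lines are means of 4. Copies were at 398 to 501 CPM (Rplp0) and 132 to 159.5 CPM (Rps7) in Yy1-/- Smc3+/- only, and the summed levels overlapped between that group and Yy1-/-.

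Rab35 (ENSMUSG00000029518.15, chromosome 5:115631908-115647736) encodes a small GTPase of endocytic recycling, and it was the only protein-coding gene with a group mean above 5 CPM that passed. It rose from 14.0, 18.9, 12.1 and 19.8 CPM in Yy1-/- to 67.8, 55.3, 40.8 and 41.1 CPM in the libraries labelled Yy1-/- Smc3+/-. Yy1+/+ libraries were at 14.3 to 22.1 CPM, next to the first group, and every library of the second group was above them. The log2 fold change was 1.66 ± 0.24 (SE; edgeR adjusted p = 0.0352). The size held when any 1 of the 8 libraries was left out (log2 fold change 1.5 to 1.76), but the call was then lost in 8 of 8 fits (adjusted p from 0.0583 to 0.172). Rab35 lies near Rplp0, with 2 tested genes, Gcn1l1 and 1110006O24Rik, between them. Among 7 tested genes from 100 kb before Rplp0 to 100 kb after Rab35, only Rab35 was called (0.036% of all genes were). Sirt4 (higher, edgeR adjusted p = 0.904), Rplp0 (lower) and Rab35 separated the groups, as did 2.01% of all genes. Rplp0 and Rab35 are the genes that set this window. Sirt4, a mitochondrial sirtuin, was at 8.08 to 17.0 CPM in Yy1-/- and at 17.1 to 21.8 CPM in Yy1-/- Smc3+/-. Pxn, the focal adhesion protein paxillin, was at 72.4 to 142 CPM and at 119 to 159 CPM. Bicdl1, the gene that follows Rab35, was at 17.2 to 27.6 CPM and at 21.2 to 27.5 CPM, so the size of the Rab35 difference was not seen in it. Gcn1l1, the translation regulator next to Rplp0, was at 35.7 to 87.8 CPM and at 57.2 to 118 CPM. Gm13123, a pseudogene on chromosome 4 that matches 492 of its coding bases at 99.4% identity, was at 0 to 0.0716 CPM and at 0.281 to 0.595 CPM. Its edgeR adjusted p was 0.904, and limma on log2 TPM called it (adjusted p = 0.0239).

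Wwtr1 and Fhdc1, both on chromosome 3, passed the test with few reads. Wwtr1 (chromosome 3:57455649-57575910) encodes TAZ, a coactivator of the Hippo pathway. Its counts were 0, 0, 0 and 1 in Yy1-/- and 28, 35, 41 and 17 in the libraries labelled Yy1-/- Smc3+/-, where the level was 0.422 to 1.06 CPM. Counts per depth were 133-fold higher, with an exact 95% counting interval of 23.4 to 5288 that covers counting error only (edgeR adjusted p = 0.0212). Yy1+/+ libraries held 1.2 to 2.05 CPM, above both groups. Fhdc1 (chromosome 3:84442198-84480429), a formin that acts on actin and microtubules, went the other way. Its counts were 29, 42, 8 and 46 in Yy1-/- and 0 in each library labelled Yy1-/- Smc3+/-, at least 39.6-fold lower by a floor of 3 counts over the group (edgeR adjusted p = 0.0352). In Yy1+/+ it was at 2.41 to 4.85 CPM, so the order from high to low was Yy1+/+, Yy1-/- and Yy1-/- Smc3+/-, with no overlap. The call of Wwtr1 was kept in 2 and that of Fhdc1 in 1 of 8 fits without 1 library.

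**Figure D4:**
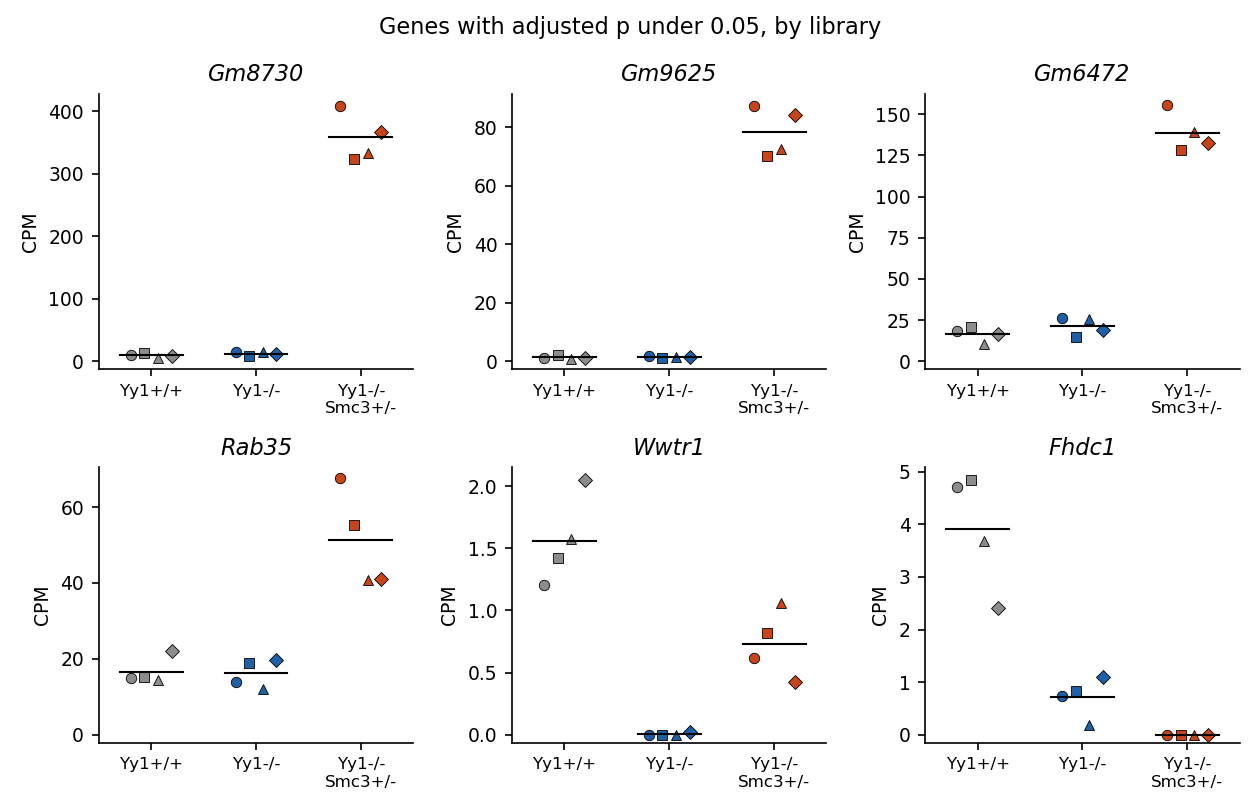
Level (CPM) in each library of the 6 genes that passed the test, with replicates 1 to 4 as circle, square, triangle and diamond and a line at the mean of 4. Gm8730, Gm9625, Gm6472 and Rab35 were at similar low levels in Yy1+/+ and Yy1-/- and high in Yy1-/- Smc3+/-; Wwtr1 was near 0 in Yy1-/- and Fhdc1 at 0 in Yy1-/- Smc3+/-.

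Beyond these calls, the largest differences without overlap are given as a description, because none of the genes passed the edgeR test. DESeq2 called 5 of the genes below, Ly6d, Hid1, Ift81, Arhgef7 and Hist1h2ae, with adjusted p from 0.006 to 0.0284. On the higher side was Ly6d, a surface protein of B-lineage-primed lymphoid progenitors, at 6.46, 11.7, 14.5 and 10.4 CPM in Yy1-/- and 19.3, 30.9, 28.6 and 82.9 CPM in Yy1-/- Smc3+/- (log2 fold change 1.91, edgeR adjusted p = 0.797). Rasal1, a GTPase-activating protein for Ras, was at 2.83 to 7.14 CPM and 7.27 to 15.4 CPM. Ccr10, a chemokine receptor known from plasma cells, was at 5.06 to 14.1 CPM and 16.3 to 19.5 CPM, and Ift81, a part of intraflagellar transport, at 9.10 to 13.1 CPM and 17.1 to 27.0 CPM. Hid1 was at 4.47 to 8.67 CPM in Yy1-/- and 9.75 to 17.3 CPM in Yy1-/- Smc3+/-, both below the 27.6 to 39.8 CPM of Yy1+/+. Log2 fold changes of the other 4, Fbxl19, Irgq, Ankrd23 and Ncs1, were between 0.86 and 0.98.

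On the lower side Ccnd1, the G1 cyclin D1, was at 43.9, 30.5, 22.6 and 19.7 CPM in Yy1-/- and at 5.91, 14.6, 11.6 and 19.6 CPM in Yy1-/- Smc3+/- (log2 fold change -1.17, edgeR adjusted p = 0.904), so the gap between the groups was narrow. Hist1h2ae, a replication-dependent H2A gene, was at 89.1 to 273 CPM and 45.0 to 66.1 CPM. Arhgef7, an exchange factor for Rac and Cdc42, had the tightest groups, at 20.1, 17.2, 19.8 and 16.2 CPM and 8.86, 6.97, 9.96 and 9.36 CPM (log2 fold change -1.06 ± 0.24 SE, edgeR adjusted p = 0.581). Selp, the adhesion molecule P-selectin, was at 45.0 to 69.5 CPM and 17.2 to 41.9 CPM. Ephx1, an epoxide hydrolase, was at 2.51 to 13.6 CPM and 1.52 to 2.30 CPM, and Arhgap5 at 4.29 to 7.25 CPM and 0.698 to 3.60 CPM. Log2 fold changes of Sept8, St3gal5, Skap1 and Abcb9 were between -1.14 and -1.02.

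Genes of 37 lists were then followed, and 0 members of any list passed the edgeR test in either direction. DESeq2 called 6 members: Rsad2, Rplp0 and Rps7 lower (adjusted p = 0.0147, 0.0261 and 0.0375) and Dll4, Pcdhb16 and Alox12 higher. Interferon-stimulated genes, which make up an antiviral programme, had the most even direction among the immune lists. Of 52 tested members 51 had a lower point estimate, with a median log2 fold change of -0.61 against 0.00 for all genes, and 19 had an unadjusted p under 0.05, all lower. Rsad2, which encodes viperin, was at 68.2, 52.7, 22.1 and 17.5 CPM in Yy1-/- and 10.2, 18.2, 15.4 and 10.9 CPM in Yy1-/- Smc3+/- (log2 fold change -1.55, edgeR adjusted p = 0.797). Oasl2 was at 187, 163, 93.9 and 85.1 CPM and at 77.5, 82.6, 45.4 and 62.8 CPM. It was the 1 of 52 members without overlap, near the share of all genes (2.01%). Replicates 1 and 2 of Yy1-/- were high in both genes. The summed level of the list was 12560, 8691, 6218 and 5767 CPM in Yy1-/-, 6243, 5876, 5109 and 5851 CPM in Yy1-/- Smc3+/- and 5120 to 6624 CPM in Yy1+/+. Without replicates 1 and 2 of Yy1-/- the median was 0.02, and without the 3 libraries with residual Yy1 reads, which leaves only those 2 in Yy1-/-, it was -0.93 with 13 members called lower.

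Monocyte and macrophage markers were highest in the same 2 libraries. Monocyte and macrophage genes summed to 18220, 13110, 1538 and 2203 CPM in Yy1-/- and to 2584, 4668, 2536 and 1775 CPM in Yy1-/- Smc3+/-, against 1079 to 2240 CPM in Yy1+/+. Of 34 tested members 31 had a lower point estimate (median -1.44), and 10 had an unadjusted p under 0.05. Lyz2, lysozyme, was at 4248, 2806, 177 and 348 CPM in Yy1-/- and 371, 730, 424 and 267 CPM in Yy1-/- Smc3+/-. C1qb, a complement subunit made by macrophages, was at 2206, 1540, 9.34 and 74.0 CPM and at 187, 461, 60.6 and 15.2 CPM. The groups overlapped in both genes, and the list's median was 0.76 without replicates 1 and 2 of Yy1-/-. In bulk RNA fewer cells of a type and less of its RNA per cell cannot be told apart. The part of these 2 libraries' monocyte genes in the interferon values was not tested.

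Neutrophil genes, a list that also holds Lyz2, had their highest sum in another library. They summed to 11450, 13490, 5494 and 9125 CPM in Yy1-/- and to 3825, 3392, 19490 and 3889 CPM in Yy1-/- Smc3+/-, where replicate 3 stood above all others. Of 31 tested members 26 had a lower point estimate (median -1.02). Mpo, the myeloperoxidase of early granules, was at 1083, 798, 2050 and 4013 CPM and at 981, 565, 10068 and 696 CPM. In replicate 3 of Yy1-/- Smc3+/- Mpo alone gave 10068 of the 19490 CPM, so the rank of that library rests largely on 1 gene. Ctsg, an azurophil protease, was at 745 to 1177 CPM and 448 to 1649 CPM. BC100530 and Stfa1, stefins of late neutrophils, were at 8.06 to 213 CPM and 11.5 to 30.9 CPM, and at 8.08 to 140 CPM and 13.3 to 17.6 CPM. Without replicate 3 of Yy1-/- Smc3+/- the list's median was -1.80, without replicate 2 of Yy1-/- it was -0.24, and without replicates 1 and 2 of Yy1-/- it was 0.27.

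**Figure D5:**
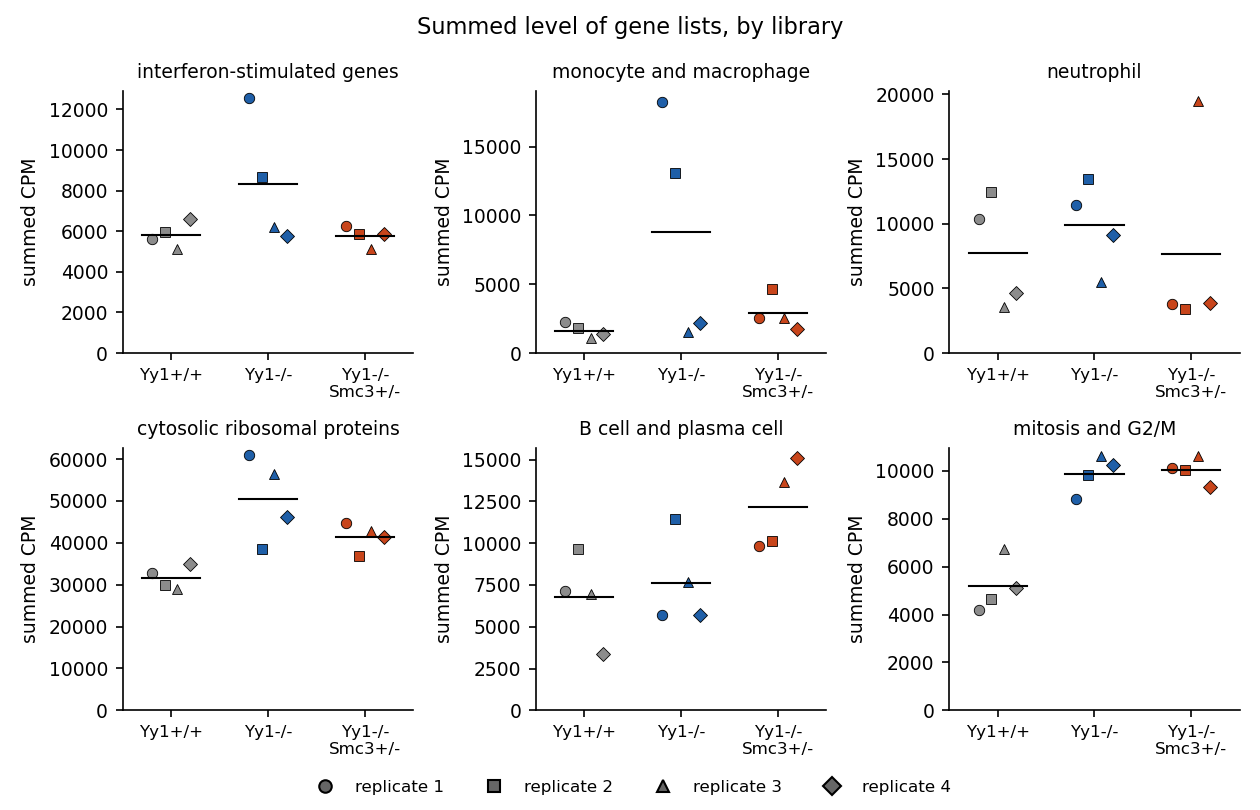
Summed level (CPM) of 6 gene lists in each library, by genotype, with symbols for replicates and a line at the mean of 4. Interferon-stimulated and monocyte genes were highest in replicates 1 and 2 of Yy1-/-. Neutrophil genes had their highest sum in replicate 3 of Yy1-/- Smc3+/-, much of it from Mpo, and mitosis genes were level between both Yy1-/- groups.

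Cytosolic ribosomal protein genes shared 1 sign, with small sizes. All 80 tested members had a lower point estimate, with a median of -0.27 and a range from -0.63 (Rps7) to -0.10. Rps7 and Rplp0, the parents of the copies above, were the 2 members without overlap (2.01% of all genes had none). With their tested copies added, the log2 ratios of means were -0.33 and -0.27. Their sum was 61090, 38540, 56470 and 46090 CPM in Yy1-/- and 44760, 36770, 42810 and 41310 CPM in Yy1-/- Smc3+/-, so replicate 2 of Yy1-/- lay within the other group. Rpl13, a subunit with high levels, was at 2298 to 3463 CPM and 2258 to 2848 CPM. In Yy1+/+ the sum was 28950 to 34900 CPM, below all 8 libraries. The median stayed between -0.39 and -0.18 when 1 library was left out. Nuclear genes of oxidative phosphorylation were lower in 75 of 77 cases with a median of -0.16, and 0 had an unadjusted p under 0.05. Atp5b, the catalytic subunit of ATP synthase, had means of 1651 and 1483 CPM.

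B cell and plasma cell genes were higher in point estimate in 17 of 22 tested cases. Their median was 0.53, or 0.94 without replicate 2 of Yy1-/- and 0.35 without replicate 4 of Yy1-/- Smc3+/-. The T cell, NK cell and innate lymphoid list was lower in 21 and higher in 15 of 36 cases (median -0.13, or 0.22 without replicate 4 of Yy1-/-). Among the B cell and plasma cell genes 6 had an unadjusted p under 0.05, all higher. Igkc, the kappa light chain constant region, was at 3866, 7377, 4818 and 2947 CPM in Yy1-/- and at 6631, 6706, 8665 and 10127 CPM in Yy1-/- Smc3+/-. Jchain, which joins secreted antibodies, was at 931 to 3290 CPM and 2264 to 3825 CPM, and Sdc1, the plasma cell surface proteoglycan, at 15.3 to 41.8 CPM and 38.96 to 55.5 CPM. Cd79a, a part of the B cell receptor, was at 5.41 to 12.8 CPM and 12.5 to 27.5 CPM. Rag2, a recombinase of early lymphocytes, was at 0 to 0.310 CPM and 0.647 to 4.12 CPM. Only Rag2, 1 of the 22, kept the groups apart (2.01% of all genes did), and its edgeR adjusted p was 0.904. Immunoglobulin V genes were detected unevenly. Between 16 and 60 of 116 tested V genes reached 1 CPM in a Yy1-/- library, and between 42 and 81 in a library labelled Yy1-/- Smc3+/-.

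Progenitor and cell cycle genes differed little in sum. Of 50 stem cell genes 29 had a higher and 21 a lower point estimate (median 0.08). Mycn, the Myc family member of stem cells, was at 8.90, 16.7, 36.5 and 27.9 CPM and at 48.4, 49.8, 28.7 and 47.2 CPM (log2 fold change 0.95, edgeR adjusted p = 0.904). Cd34 was level, at 942 to 1158 CPM and 904 to 1002 CPM. Of 17 genes of lymphoid-primed progenitors 12 were higher in point estimate (median 0.28, or 0.03 without replicate 4 of Yy1-/- Smc3+/- and -0.01 without replicates 1 and 2 of Yy1-/-). These included Flt3, the cytokine receptor of multipotent progenitors, with means of 288 and 396 CPM, and Satb1, a chromatin organiser, with 58.8 and 97.1 CPM. Mitosis and G2/M genes split into 27 higher and 26 lower (median 0.02), and their sum was 8824 to 10640 CPM in Yy1-/- and 9344 to 10610 CPM in Yy1-/- Smc3+/-. Incenp, a chromosomal passenger protein, was the 1 of 53 members of that list without overlap, near the share of all genes (2.01%), with means of 200 and 255 CPM. Of 15 condensin and SMC5/6 genes, the other complexes of the family, 8 were higher and 7 lower (median 0.03), and Polycomb and INO80 genes had a median of 0.04 over 45 members. DNA damage repair genes were higher in 37 of 50 cases with a median of 0.14, and Xrcc3 alone had an unadjusted p under 0.05.

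Immediate early genes, which sorting and dissociation can induce, varied by library. Their summed level was 16240 CPM in replicate 1 of Yy1-/- Smc3+/- and 8292 to 9259 CPM in the other 3, against 7576 to 10400 CPM in Yy1-/-. Dusp1, a MAP kinase phosphatase, was at 1199 CPM in that replicate and at 31.9 to 399 CPM in the other 7 libraries. The list's median was 0.70 with all libraries and -0.01 without that replicate. Erythroid genes had a median of -0.50, which was 0.10 without replicate 3 of Yy1-/- and -1.08 without replicate 3 of Yy1-/- Smc3+/-. Blvrb, an enzyme of haem breakdown, had means of 67.6 and 22.7 CPM.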

How the data were processed

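RNA of 12 LSK libraries was analysed from RSEM gene tables with STAR 2.5.2b, RSEM 1.3.0 and build mm10 named in the submitters' processing notes; neither settings nor annotation are given in the sources used here. The deposited expected counts are estimated counts per gene without scaling for depth, and between 19.4% and 20.9% of a library's values above 0 lay more than 1e-06 from a whole number, as reads are divided between similar genes. The deposited TPM values are scaled for length and depth, per the file headers, and served an alternative.

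Expected counts were rounded. Of 55487 genes, edgeR 4.0.16 (R 4.3.3) kept 16649 by its filter (minimum count 10, minimum total 15). One quasi-likelihood model over 12 libraries with TMM scaling gave the contrast Yy1-/- Smc3+/- minus Yy1-/-, with Benjamini-Hochberg adjusted p under 0.05 as a call and the F test also behind the unadjusted p. The SE of a log2 fold change was worked back from the test, as its absolute value over the square root of F. The 95% intervals of log2 fold changes used that SE with a t quantile. The fit was tested on simulated data. GENCODE M21 (GRCm38) gave positions, with 55094 identifiers matched in full and 300 apart from the version number. Copies were found with BLAST 2.17.0 at 95% identity over 50% of the coding sequence. Named are Smc3, Yy1, Kit, Ly6a, called genes, cohesin genes, the 10 largest rises and falls without overlap (protein-coding, 5 CPM, unadjusted p under 0.05) and, per list, the 4 members with the smallest p and the 3 with the highest level; parents, copies, neighbours and genes given as list examples beyond this were chosen after their values were seen. Members and lists were chosen with earlier results of these data known. Alternatives used limma 3.58.1, DESeq2 1.42.0, other filters and scalings, and fewer libraries.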

Additional observations from a re-analysis of the deposited data

Results flagged for a closer look

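Within the 4 libraries of a group, the highest or lowest sample was set against the spread of the others for 29 named genes, 58 groups in all. A gap beyond Dixon's 95% critical value was found in 4 of 58. Chance flags about 1 in 20 groups if values are normally distributed, which CPM need not be. Yy1 was at 4.45 CPM in replicate 3 of Yy1-/- Smc3+/-, against 0.772 to 0.944 CPM in the other 3. Wwtr1 was at 0.0239 CPM, a single count, in replicate 4 of Yy1-/- and at 0 in the other 3. With the other 3 at 0 any value above 0 is flagged, so this flag says nothing about size. Fbxl19, an F-box protein, was at 1.42 CPM in replicate 1 of Yy1-/- against 4.42 to 4.97 CPM. St3gal5, the synthase of ganglioside GM3, was at 30.1 CPM in the same library against 8.05 to 10.8 CPM.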

How the results depend on the processing

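No paired analysis was possible because the labels give no replicate numbers that link the groups. The number of calls, 6 in the reported fit, was 55 with DESeq2 (58 adjusted p not given), 3 with voom and library weights, 2 with sex-linked reads as a term (Gm8730 and Gm9625), and 169 (46 higher, 123 lower) without the libraries with residual Yy1 reads, where 2 and 3 libraries remained. Fits without 1 library gave 3 to 6 (3 without replicate 2 of Yy1-/- or replicate 1, 2 or 3 of Yy1-/- Smc3+/-), with Gm8730, Gm9625 and Gm6472 called in each. Rab35, Wwtr1 and Fhdc1 were not called when the Yy1+/+ libraries were left out of the edgeR fit, nor by limma on log2 TPM. Without replicates 1 and 2 of Yy1-/-, an alternative chosen after seeing the data, 4 genes were called. Those 2 are the Yy1-/- libraries left in the fit without residual Yy1 reads, and they had the highest monocyte gene sums. The log2 fold change of Yy1 was 0.23 without the residual-read libraries (edgeR adjusted p = 0.88), a reversed sign. Ly6a, near 0 throughout, had 0.089 with voom, 0.19 without replicates 1 and 2 of Yy1-/-, and -0.37 to 0.13 over fits without 1 library, above 0 without replicate 1 of Yy1-/- (0.13) or replicate 3 of Yy1-/- Smc3+/- (0.028). Smc3 stayed above 0 in all 19 alternatives. The cause of these differences was not tested. Of 703 recomputed list medians 54 moved by more than 1 SD of the list between libraries. Counts under the floor of 3 per group, 0.018 CPM in Yy1-/- Smc3+/-, cannot be told from 0.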
